A study of Mus musculus with 8 samples.

Results

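The levels of 9 transcription factor genes that give pallial neurons their identity were followed here, picked by name from the 16397 genes of the count table by a rule that uses no measured value, though with earlier results of these data known. Prox1 marks the dentate gyrus, Zbtb20 marks the hippocampal fields, and Bcl11b, Tbr1, Fezf2, Etv1, Mef2c, Nfia and Nfib are used across hippocampal and neocortical neurons and their precursors. All 9 were measured in every sample and passed the filter on low counts. Their levels were read in hippocampi of wild-type C57Bl/6J embryos at E15.5, from 4 IUGR and 4 sham offspring, both sexes being used by the study. IUGR dams carried a micro-osmotic pump from E12.5 that delivered U-46619, a thromboxane A2 analog, and sham dams carried a pump with the ethanol vehicle alone, so both groups shared the surgery and the vehicle. IUGR stands for intrauterine growth restriction, and the comparison asks whether the identity genes of the forming hippocampus were set differently in growth-restricted embryos.

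In the developing pallium, the dorsal part of the telencephalon, dividing radial glia give rise to excitatory neurons either directly or through Eomes-expressing intermediate progenitors. Each new neuron then takes on a regional and laminar identity under transcription factors that act in combination and partly repress one another, as Fezf2, Bcl11b and Tbr1 do in the neocortex. The dentate gyrus is the last hippocampal field to form: its Prox1-positive granule neurons come from precursors that leave the ventricular zone next to the cortical hem, a source of Wnt ligands, and migrate to the dentate anlage.

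Total counts ran from 12919546 to 16672463 in the IUGR libraries and from 11212632 to 15405748 in the sham libraries. All 4 IUGR samples carried names starting with T1, and the sham samples carried names starting with S1 (S1-4, S1-6) or S3 (S3-1, S3-4), with no label saying what the prefix stands for. No source said that the samples came from separate litters, so the p-values measure only the spread between these samples. The hippocampal label was checked on a list of 11 field patterning genes, of which 10 passed the filter. The summed level of these genes was 559 to 1273 CPM (counts scaled to a common library size). Markers of neighbouring tissue differed between the groups and between libraries. Of 17 choroid plexus markers 15 were tested, and their sum was 47.5 to 372 CPM in IUGR against 1087 to 1573 in sham. The sum of 9 cortical hem markers was 75.6 to 135 in IUGR against 181 to 393 in sham. The sum of 8 meningeal markers ran from 70.3 in T1-4 to 2751 in T1-3 among the IUGR libraries and from 264 to 536 in sham. The part of these tissues in the results for the identity factors was not tested.

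None of the 9 identity factors passed the call, which asked in edgeR's quasi-likelihood test for an adjusted p no greater than 0.05 together with a change of 1 or more on the log2 scale. Over all 13707 genes tested the same call was met by 1.46% of genes. An unadjusted p under 0.05 was seen for 3 of the 9, Prox1 with a lower mean in IUGR and Mef2c and Etv1 with higher means, where 11.1% of all genes had such a p. In none of the 9 did the IUGR and sham samples separate without overlap, whereas 7.14% of all genes did. The mean was lower in IUGR for 5 members and higher for 4. The median of their log2 fold changes was -0.10, beside -0.02 over all genes tested. In bulk tissue, fewer cells of a type and less RNA per cell cannot be told apart, which holds for every value that follows.

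**Figure D1:**
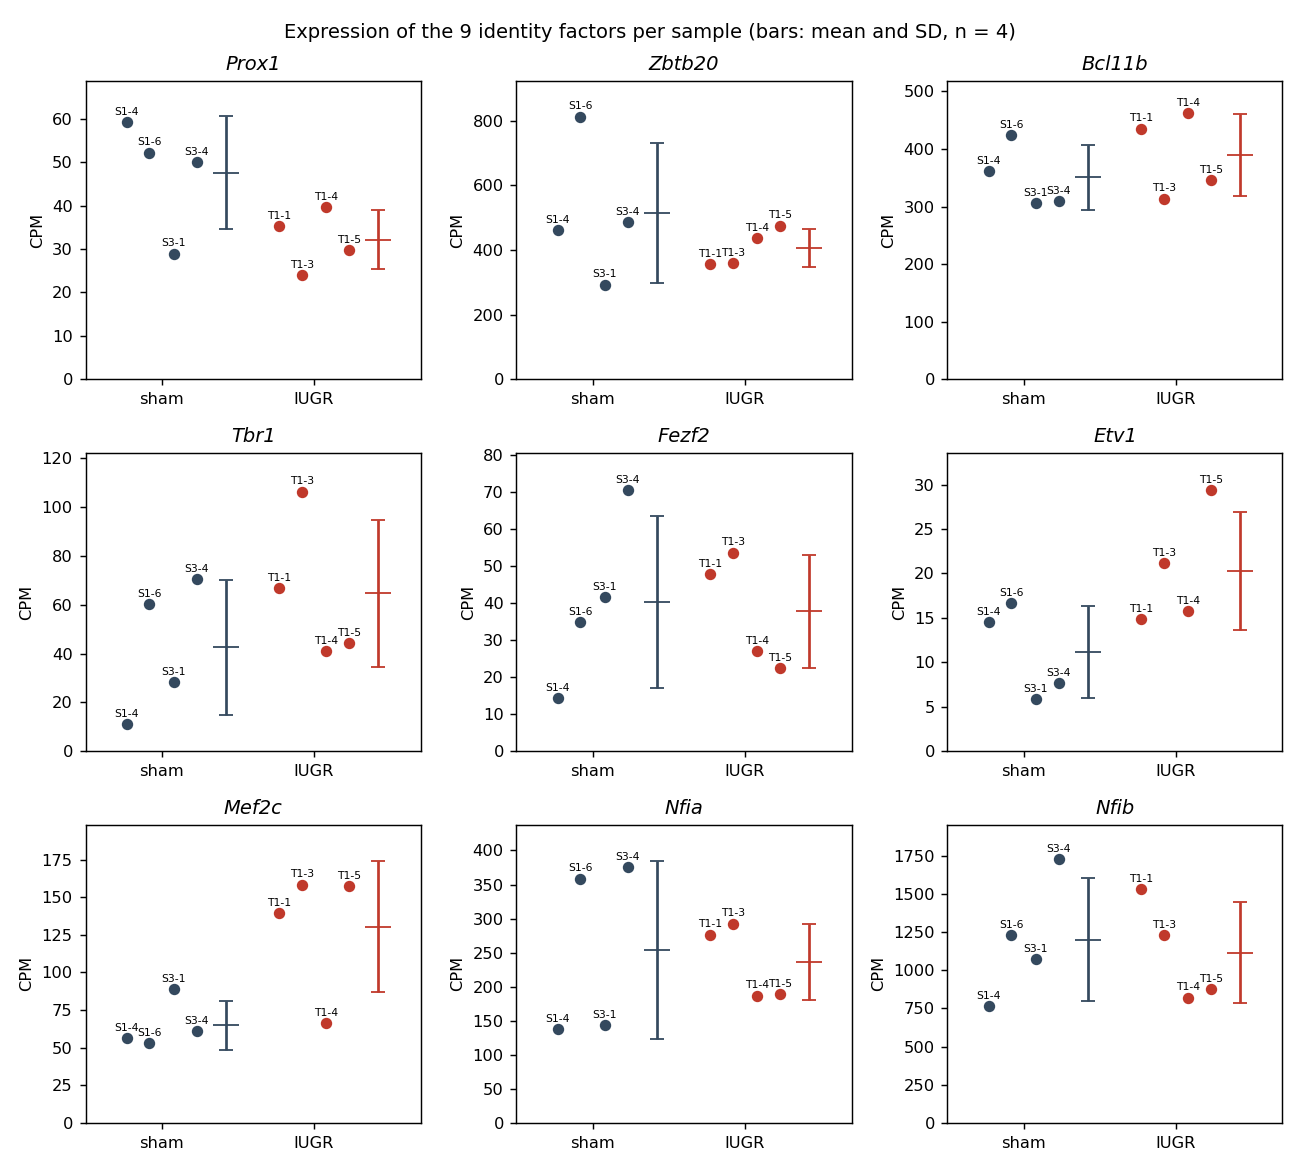
CPM of the 9 identity factors in each IUGR and sham sample, with 1 panel per gene, points for samples and group means with SD. The IUGR and sham points overlap in every panel, with Mef2c showing 3 IUGR samples above all sham samples. Tbr1 and Fezf2 show the widest sham spread as a ratio of the highest to the lowest sample.

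The sequences just upstream of the start sites of Prox1, Mef2c and Etv1 are shown because these are the 3 members with an unadjusted p under 0.05. Each run holds the 250 bases before a transcription start annotated by RefSeq, on build GRCm38.p6, written 5′ to 3′ on the strand of the gene, with matches to the E-box letters CANNTG in capitals. E-boxes are the letters recognised by proneural factors such as Neurog2 and Neurod1. The Prox1 window is chr1:190170828-190171077 on the minus strand, the Mef2c window is chr13:83503784-83504033 on the plus strand, and the Etv1 window is chr12:38779832-38780081 on the plus strand.
Prox1: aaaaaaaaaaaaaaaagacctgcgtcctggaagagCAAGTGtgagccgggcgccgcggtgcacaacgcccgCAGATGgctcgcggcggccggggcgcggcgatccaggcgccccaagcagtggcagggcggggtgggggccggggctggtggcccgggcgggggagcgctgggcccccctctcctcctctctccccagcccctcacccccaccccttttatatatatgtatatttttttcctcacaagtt
Mef2c: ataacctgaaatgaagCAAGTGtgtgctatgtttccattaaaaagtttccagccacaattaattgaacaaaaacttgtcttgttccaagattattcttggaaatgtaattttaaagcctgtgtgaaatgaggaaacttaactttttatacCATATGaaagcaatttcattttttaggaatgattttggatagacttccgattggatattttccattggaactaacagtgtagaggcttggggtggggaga
Etv1: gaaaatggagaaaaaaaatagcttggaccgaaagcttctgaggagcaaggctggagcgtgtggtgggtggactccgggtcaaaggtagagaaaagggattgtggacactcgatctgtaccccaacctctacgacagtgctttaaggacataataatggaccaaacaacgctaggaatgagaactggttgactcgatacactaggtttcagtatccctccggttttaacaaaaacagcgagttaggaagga
The Prox1 window held 2 E-box matches, CAAGTG at -215 to -210 and CAGATG at -179 to -174 counted from the start site. The Mef2c window also held 2, CAAGTG at -234 to -229 and CATATG at -100 to -95, and the Etv1 window held none. These counts belong to the starts shown, since the window of the other Prox1 start at 190169515 held 0 and that of the second Etv1 start at 38783711 held 3, and those of the other Mef2c starts at 83523656 and 83573607 held 0 and 1. Such a match is common, since 66.2% of 32817 mouse windows of the same length hold at least 1. The Wnt-effector letters CTTTGAT of TCF/LEF factors, found in 3.21% of all windows, and the NFI letters TTGGCA, found in 12.3%, were searched on both strands as well and were not in these 3 windows. Base composition differed more, with 64.8% GC and 20 CpG in the Prox1 window, 46.4% GC and 9 CpG in the Etv1 window, and 33.6% GC and 1 CpG in the Mef2c window, beside a median of 52.4% GC over all windows. Of the 9 members 8 matched the promoter table, with 12 start windows among them, and Nfib did not. Among the windows not printed, a TCF/LEF match lay at -205 to -199 of the Nfia start at 97581943, which lies upstream of the gene span given by GENCODE, and an NFI match at -185 to -180 of a second Etv1 start at 38783711. A match is a description of letters and not a bound site, and a window without one says nothing of the factor.

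Prox1 encodes a homeodomain factor that granule neurons of the dentate gyrus need to keep their identity, and its gene spans chr1:190118035-190170714 on the minus strand of GRCm38. It was measured at 35.4, 24.0, 39.6 and 29.8 CPM in T1-1, T1-3, T1-4 and T1-5, and at 59.2, 52.2, 28.9 and 50.1 in S1-4, S1-6, S3-1 and S3-4. S1-4, S1-6 and S3-4 each stood above all 4 IUGR samples, but S3-1 lay below every IUGR sample except T1-3. IUGR samples averaged 32.2 ± 6.79 (SD, n = 4) and sham samples 47.6 ± 13.0 (SD, n = 4). The difference on the log2 scale was -0.56 with a standard error of 0.23 and a 95% interval of -1.08 to -0.05. The unadjusted p was 0.0338 and the adjusted p in edgeR's quasi-likelihood test was 0.368, so the difference did not pass. The value was -0.79 against the S1 sham samples alone and -0.28 against the S3 sham samples alone. The antisense gene Prox1os on the other strand held 4 to 19 counts, at most 5.15% of the Prox1 count in any sample. Within each group the order of the libraries by Prox1 was also their order by the sum over 12 interneuron markers. Between the groups it was not, since T1-4, at 1307 CPM in that sum, held less Prox1 than S3-4, at 655. The part of those cells in the Prox1 values was not tested.

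Zbtb20, a zinc finger repressor that sets hippocampal against neighbouring cortical identity, lies at chr16:42875881-43642602 on the plus strand. Its level was 356, 360, 437 and 475 CPM in the T1 samples, in the order given for Prox1, and 462, 813, 293 and 487 in the sham samples in their order. The sham samples included both the highest library, S1-6, and the lowest, S3-1, and all IUGR values lay between them. IUGR samples averaged 407 ± 58.8 (SD, n = 4) and sham samples 514 ± 217 (SD, n = 4). On the log2 scale IUGR differed from sham by -0.34 with a standard error of 0.26, an interval of -0.92 to 0.25 and an adjusted p of 0.889 in edgeR's quasi-likelihood test. Library S1-6 decided that value, since without it the log2 fold change was 0.0074.

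Of 14 further genes of the dentate granule lineage 13 were tested, 7 with a lower and 6 with a higher mean in IUGR, and none passed the call. The median of the list was -0.07 on the log2 scale. Npnt, an extracellular matrix protein, had the largest difference of the list at -1.64 with a standard error of 0.54 and an adjusted p of 0.219 in edgeR's quasi-likelihood test. Calb2, the calcium-binding protein calretinin, stood at 0.87 with an adjusted p of 0.306 by the same test. Lef1, a Wnt effector, stood at -0.67 with an unadjusted p of 0.0963, and Neurod1, a proneural factor of granule precursors, at -0.63 with an unadjusted p of 0.0494. Dcx, a microtubule-binding protein of neuroblasts, went the other way at 0.34, with an unadjusted p of 0.0548 in the same test. Among 11 genes of the CA pyramidal fields, 7 had a lower and 4 a higher mean, none passed, and none had an unadjusted p under 0.05. Their median was -0.08, with Coch at 0.35 and Wfs1, a marker of CA1 neurons, at -0.32 as the largest values of the list.

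Bcl11b, Tbr1 and Fezf2 sort corticofugal from other deep-layer neurons, and none of the 3 passed the call. Bcl11b, also called Ctip2, is a zinc finger factor of subcerebral projection neurons, of CA1 and dentate neurons and of striatal neurons, and lies at chr12:107910403-108003602 on the minus strand. The T1 samples held 435, 314, 462 and 345 CPM and the sham samples 362, 424, 306 and 309. It was the steadiest member, with a highest-to-lowest ratio of 1.51 over all 8 samples. IUGR samples averaged 389 ± 70.8 (SD, n = 4) and sham samples 350 ± 55.6 (SD, n = 4). This gave a log2 fold change of 0.15, with an interval of -0.21 to 0.52 and an adjusted p of 1.00 in edgeR's quasi-likelihood test. Its lowest libraries, S3-1, S3-4 and T1-3, were also the 3 with the lowest sum over 12 interneuron markers, at 608, 655 and 675 CPM against 944 to 1315 in the other samples. Of these markers 10 had a higher and 2 a lower mean in IUGR, with a median of 0.16 and none called. Its highest library, T1-4, had the highest sum over 10 striatal markers, 501 against 133 to 375 elsewhere, with 7 of those markers higher and 3 lower in mean in IUGR and none called. T1-1, second highest in Bcl11b, had a striatal sum of 256, and S1-4, with the highest interneuron sum, held 362 CPM of Bcl11b. The part of these cells in the Bcl11b values was not tested.

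Tbr1, a T-box factor of early-born layer 6 neurons, Cajal-Retzius cells and hippocampal pyramidal neurons, lies at chr2:61802930-61814114 on the plus strand. Its level was 66.9, 106.4, 41.0 and 44.3 CPM in the T1 samples and 11.0, 60.3, 28.4 and 70.4 in the sham samples. S1-4 and S3-1 lay below every IUGR sample, T1-3 lay above every sham sample, and the others overlapped. IUGR samples averaged 64.7 ± 30.1 (SD, n = 4) and sham samples 42.5 ± 27.6 (SD, n = 4). The log2 fold change was 0.60 with a standard error of 0.50, an interval of -0.50 to 1.71 and an adjusted p of 0.916 in edgeR's quasi-likelihood test. The spread within sham alone was 6.40 times from lowest to highest, wider than for any other member. The value came down to 0.27 without T1-3 and went up to 0.96 without S3-4. T1-3 and S1-4 were also the highest and the lowest library in the sum over 8 Cajal-Retzius markers, at 1329 and 389 CPM. Reln alone made up 1129 and 268 CPM of these 2 sums. By the mean log2 CPM of the list T1-3 was again highest, at 5.13, but T1-4 was lowest, at 3.85 beside 3.88 in S1-4. Of those markers 5 had a higher and 3 a lower mean in IUGR, and none was called. The part of those cells in the Tbr1 values was not tested.

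Fezf2, a zinc finger factor that specifies subcerebral neurons and is also transcribed in pallial progenitors, lies at chr14:12342094-12348189 on the minus strand. The T1 samples held 47.8, 53.7, 27.1 and 22.5 CPM and the sham samples 14.3, 34.9, 41.7 and 70.5. The sham group held both extremes, S1-4 at the bottom and S3-4 at the top, with all IUGR samples between them. IUGR samples averaged 37.8 ± 15.3 (SD, n = 4) and sham samples 40.4 ± 23.2 (SD, n = 4). The difference on the log2 scale was -0.10, with an interval of -1.04 to 0.85 and an adjusted p of 1.00 in edgeR's quasi-likelihood test. Its sign turned with the sham samples used, to 0.62 against S1 alone and -0.55 against S3 alone. S1-4 and S3-4 were also the lowest and highest library in the sum over 8 markers of intermediate progenitors, at 585 and 1459 CPM, while the 4 IUGR libraries stood at 803 to 971. Of these markers 6 had a lower and 2 a higher mean in IUGR, with a median of -0.11 and none called. The part of the progenitors in the Fezf2 values was not tested.

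Of 10 further deep-layer genes 7 had a lower and 3 a higher mean in IUGR, none passed the call, and the median was -0.11. Crym, a thyroid hormone-binding protein, stood at -0.77 with an adjusted p of 0.532 and Hs3st4, a heparan sulfate sulfotransferase, at 0.71 with an adjusted p of 0.452 in edgeR's quasi-likelihood test. Tle4, a corepressor of layer 6 neurons, was the only gene of this list with an unadjusted p under 0.05 and is named after its value of 0.40 was seen, with an adjusted p of 0.229 in the same test. Of 9 upper-layer genes 6 had a lower and 3 a higher mean, with a median of -0.13 and none called. In Cux2, a homeodomain factor of upper-layer neurons and their precursors, the groups did not overlap, at 33.8 to 47.4 CPM in IUGR and 50.8 to 58.6 in sham. Its log2 fold change was -0.43 with an adjusted p of 0.243 in edgeR's quasi-likelihood test, and that of Unc5d, a netrin receptor, was 0.44.

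Mef2c had the largest difference of the 9. It encodes a MADS-box factor that drives excitatory neuron maturation and synapse control and is also made by interneurons, microglia and endothelium, and it lies at chr13:83504034-83667080 on the plus strand. It was measured at 139, 158, 66.4 and 157 CPM in T1-1, T1-3, T1-4 and T1-5, and at 56.1, 53.2, 88.7 and 61.2 in S1-4, S1-6, S3-1 and S3-4. T1-1, T1-3 and T1-5 stood above all sham samples, and T1-4 lay inside the sham range, below S3-1. IUGR samples averaged 130.4 ± 43.6 (SD, n = 4) and sham samples 64.8 ± 16.3 (SD, n = 4). The log2 fold change was 1.01, a 2.01-fold higher level, with a standard error of 0.27 and an interval of 0.41 to 1.61. The unadjusted p was 0.00369 and the adjusted p in edgeR's quasi-likelihood test was 0.111, so Mef2c was not called. It was called by the DESeq2 Wald test, at 1.03 on the log2 scale (adjusted p = 0.00616), and by edgeR's quasi-likelihood test without library T1-4, at 1.23 (adjusted p = 0.0272). Over all alternatives its adjusted p ran from 0.00616 to 0.466. The log2 fold change stayed between 0.91 and 1.23 with any 1 library left out, and was 1.26 against S1 and 0.82 against S3 alone.

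Markers of the cell types that also make Mef2c were read beside it. The sum over 8 endothelial markers was 253, 350, 195 and 286 CPM in T1-1, T1-3, T1-4 and T1-5 and 257 to 351 in sham, overlapping between the groups. Slco1a4, a transporter in that list, went against most of the others at -2.93 on the log2 scale, with 0.17 to 27.8 CPM in IUGR and 53.9 to 91.2 in sham. Its level is counted in the endothelial sums and so raised those of sham more than those of IUGR. The sum over 9 microglial markers was 73.5, 171, 69.8 and 99.2 in the T1 samples and 72.8 to 95.5 in sham. All 9 microglial genes had a higher mean in IUGR, with a median of 0.22, and 6 of the 8 endothelial genes did, with a median of 0.54, and none of either list passed the call. The sum over 14 general neuron markers was 4807 to 5156 in IUGR and 3608 to 4457 in sham, without overlap. T1-4, the IUGR library with the least Mef2c, had the highest neuron sum of all 8. Most of that sum came from Tubb3 and Map2, at 1801 and 1763 CPM in T1-4. By the mean log2 CPM of the list T1-3, with the most Mef2c, was highest at 7.16, against 6.86 in T1-4. T1-5, second in Mef2c, was the lowest IUGR library by that mean, at 6.66. Of these 14 genes 13 had a higher mean in IUGR and none passed the call, with a median of 0.45. Within IUGR the Mef2c order, T1-3 first, then T1-5, T1-1 and T1-4, was also that of the endothelial and microglial sums, and of the meningeal, blood, Cajal-Retzius, choroid plexus and cortical hem sums. In sham S1-6 had the highest meningeal sum, 536, and the least Mef2c. The largest differences of the list were those of Nefl, the light neurofilament chain, at 1.24 with an adjusted p of 0.218 and of Syt1, the synaptic vesicle calcium sensor, at 1.08 with an adjusted p of 0.0629 in edgeR's quasi-likelihood test. No gene of the endothelial, microglial or neuron lists was at 0 in any sample, and the part of these cells in the Mef2c values was not tested.

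Etv1, an ETS factor of layer 5 projection neurons that is also made in ventral telencephalic precursors, lies at chr12:38779380-38870484 on the plus strand and was the scarcest member. It was measured at 14.8, 21.2, 15.8 and 29.4 CPM in the T1 samples and at 14.5, 16.6, 5.88 and 7.63 in the sham samples. Both S3 samples lay far below every IUGR sample, whereas S1-4 lay just under the lowest IUGR sample and S1-6 lay above T1-1 and T1-4. IUGR samples averaged 20.3 ± 6.66 (SD, n = 4) and sham samples 11.2 ± 5.21 (SD, n = 4). IUGR over sham gave a log2 fold change of 0.87 with a standard error of 0.35 and an interval of 0.09 to 1.64. The unadjusted p was 0.0317 and the adjusted p 0.355 in edgeR's quasi-likelihood test. The size of the difference depended on which sham samples were used, at 0.38 against S1 alone and 1.60 against S3 alone, with adjusted p of 0.979 and 0.130 in that test. The S3 samples also had the lowest interneuron marker sums, at 608 and 655 CPM. T1-3, with a sum of 675, was second highest in Etv1, and S1-4, with the highest sum of 1315, held only 14.5. The part of those cells in the Etv1 values was not tested.

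**Figure D2:**
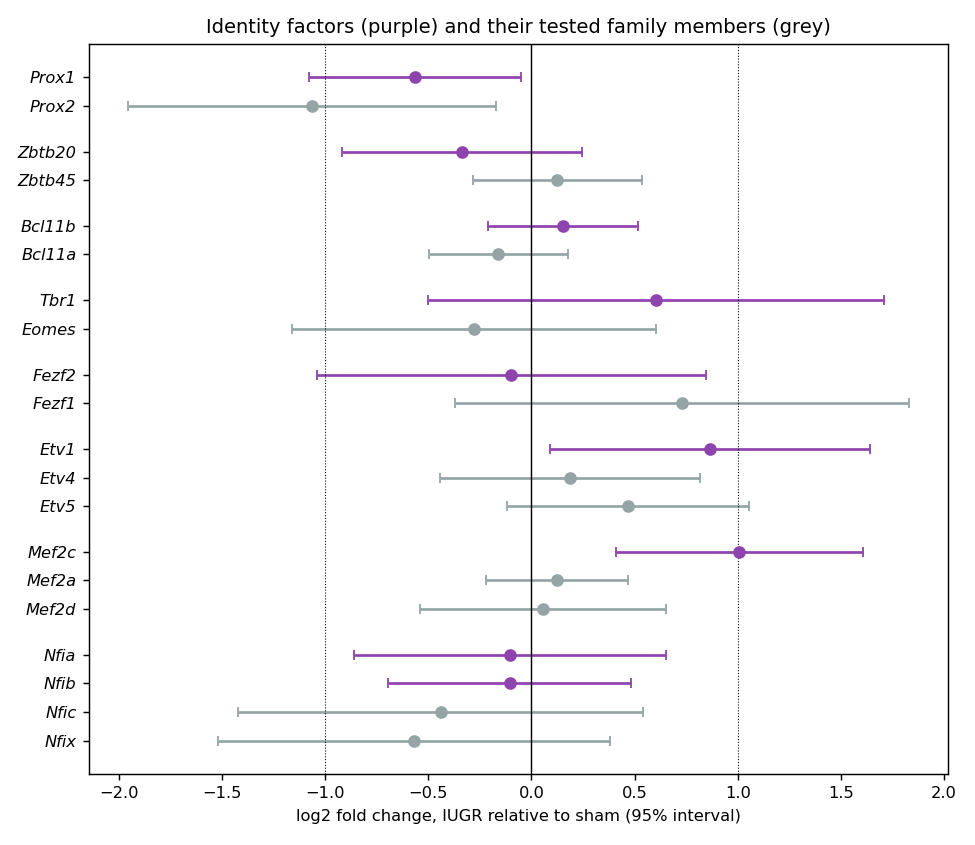
Log2 fold change of IUGR over sham with 95% intervals for the 9 identity factors (purple) and their 11 tested family members (grey), with dotted lines at a change of 1 in either direction. Mef2c is the identity factor whose point lies past the line at 1, and of the 9 only Prox1, Etv1 and Mef2c have intervals that leave out 0.

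Nfia and Nfib are members of the nuclear factor I family, which switches radial glia towards glial fates and is needed for the hippocampus, and for the dentate gyrus in particular, to form. Nfia lies at chr4:97772734-98118874 on the plus strand and was measured at 276, 293, 187 and 189 CPM in the T1 samples and at 137, 359, 143 and 376 in the sham samples. The sham samples fell on both sides, S1-4 and S3-1 below every IUGR sample and S1-6 and S3-4 above every one. The averages were 236 ± 56.2 (SD, n = 4) for IUGR and 254 ± 131 (SD, n = 4) for sham. On the log2 scale the difference was -0.10, with an interval of -0.86 to 0.65 and an adjusted p of 1.00 in edgeR's quasi-likelihood test. The overlapping gene E130114P18Rik on the other strand held 337 to 1183 counts, 12.9% to 51.3% of the Nfia count, and the strand setting of the counting is not given in the sources used here, so reads of this pair may not be fully separated.

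Nfib lies at chr4:82290173-82705750 on the minus strand and was the most abundant member. It was measured at 1532, 1233, 822 and 875 CPM in the T1 samples and at 768, 1232, 1072 and 1729 in the sham samples. As for Fezf2, S1-4 was the lowest and S3-4 the highest library, with the IUGR samples between them. IUGR samples averaged 1115 ± 332 (SD, n = 4) and sham samples 1200.3 ± 402 (SD, n = 4). The log2 fold change was -0.11, with an interval of -0.70 to 0.48 and an adjusted p of 1.00 in edgeR's quasi-likelihood test. Gm11266 on the other strand held at most 5.86% of the Nfib count. Of 10 gliogenic genes downstream of or beside the NFI factors 6 had a lower and 4 a higher mean in IUGR, with a median of -0.26 and none called. Apcdd1, a Wnt inhibitor induced during gliogenesis, stood at -0.78 with an adjusted p of 0.198 in edgeR's quasi-likelihood test. Gfap, the mature astrocyte filament, was barely present with a mean count of 11.8 per library.

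The families of these factors gave no call either. Of 13 relatives 11 were tested, 5 with a lower and 6 with a higher mean in IUGR and a median of 0.06, and Tbx21 and Mef2b were not analysed here. Nfix averaged 148 ± 56.5 (SD, n = 4) CPM in IUGR against 220 ± 127 (SD, n = 4) in sham, a log2 fold change of -0.57, and Nfic stood at -0.44. Eomes, the T-box relative of Tbr1 that marks intermediate progenitors, stood at -0.28 and Bcl11a at -0.16. The other MEF2 factors were near 0, with Mef2a at 0.12 and Mef2d at 0.06 beside 1.01 for Mef2c. The ETS relatives Etv5 and Etv4 stood at 0.47 and 0.19, and Zbtb45 at 0.13. Prox2 at -1.06, with an unadjusted p of 0.0241 and an adjusted p of 0.312 in edgeR's quasi-likelihood test, and Fezf1 at 0.73 were too scarce to read closely, with mean counts of 17.8 and 18.3 per library.

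The patterning genes that lay out the hippocampal fields before these neurons form were read as well. Of 10 tested 9 had a lower mean in IUGR, with a median of -0.52 and none called. Nr2f1, an orphan nuclear receptor that sets pallial areas, was measured at 72.5, 32.9, 59.3 and 45.2 CPM in the T1 samples and at 143, 74.5, 148 and 119 in the sham samples. Its groups did not overlap, and its log2 fold change was -1.20 with a standard error of 0.27 and an adjusted p of 0.0584 in edgeR's quasi-likelihood test. Dmrt3, a doublesex-related factor of medial pallial progenitors, did not overlap either, with 2.28 to 7.04 CPM in IUGR and 9.52 to 31.4 in sham. Its log2 fold change was -1.75 with a standard error of 0.44 and an adjusted p of 0.0892 in the same test. The cortical hem sums given above were likewise lower in every IUGR sample than in any sham sample, and the part of that tissue in the Nr2f1 and Dmrt3 values was not tested.

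**Figure D3:**
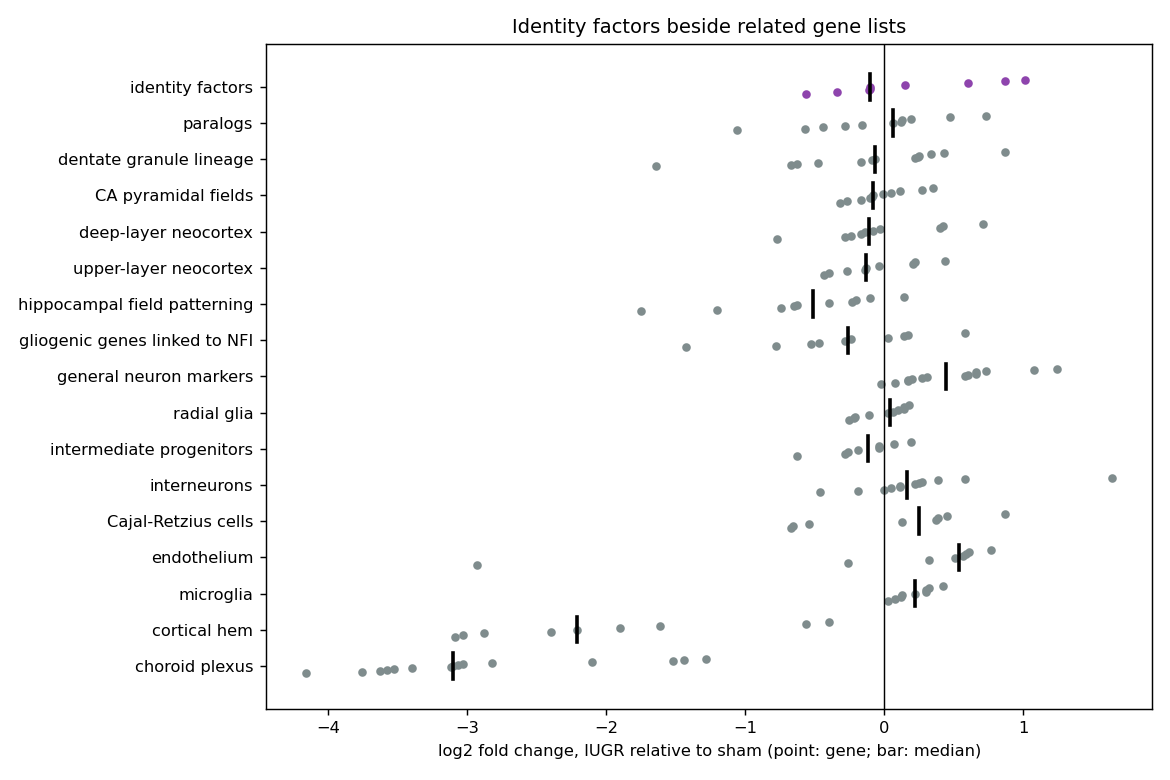
Log2 fold change of IUGR over sham for each tested gene of the identity factors (purple) and of the related gene lists, with a bar at each median. The identity factors centre at -0.10, the dentate, CA and cortical layer lists at -0.07 to -0.13, the field patterning genes at -0.52 and the general neuron markers at 0.45.

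The levels of the 9 factors were compared with each other per kilobase of annotated exon. In sham the order was Nfib at 80.2, Bcl11b at 43.2, Nfia at 23.3, Zbtb20 at 16.7, Fezf2 at 13.2, Tbr1 at 7.75, Prox1 at 5.67, Mef2c at 4.12 and Etv1 at 0.839 CPM per kilobase. Neighbours in this order overlapped in their sample ranges except for Bcl11b over Nfia and Mef2c over Etv1. The IUGR order differed in 1 place, with Mef2c at 8.30 above Prox1 at 3.84, a pair whose ranges overlapped in both groups. The ranges that did not overlap between neighbours in IUGR were those of Bcl11b over Nfia, Nfia over Zbtb20 and Prox1 over Etv1.

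The spread of the members between embryos of 1 group differed from gene to gene. The within-group SD of log2 CPM was 0.97 for Tbr1, 0.80 for Fezf2, 0.62 for Nfia, 0.59 for Etv1, 0.49 for Mef2c, 0.46 for Nfib, 0.45 for Zbtb20, 0.39 for Prox1 and 0.25 for Bcl11b. Its median was 0.24 over the 10872 tested genes that averaged 100 counts or more, so all 9 stood above it, and 4 were among the 10% of those genes with the largest SD. Over all tested genes, scarce ones included, the median was 0.28, and Bcl11b lay below that. In sham the highest library stood at 4.92 times the lowest for Fezf2, 2.83 times for Etv1, 2.77 times for Zbtb20, 2.73 times for Nfia, 2.25 times for Nfib, 2.04 times for Prox1, 1.67 times for Mef2c and 1.39 times for Bcl11b. By this ratio the IUGR samples were less spread than sham for 7 members and not for Mef2c and Bcl11b, at 2.39 and 1.47 times, whereas by the SD of CPM IUGR was also the wider group for Tbr1 and Etv1.

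The samples in which members were high or low were compared after centring each gene on its mean log2 level, by the root mean square difference over the 8 samples. Nfia and Nfib were the closest pair at 0.31, followed by Prox1 with Zbtb20 at 0.35 and Fezf2 with Nfib at 0.37. The most distant pair was Prox1 with Tbr1 at 1.19. Library S1-4 showed that contrast most plainly, where Prox1 stood at 0.63 and Tbr1 at -2.02 from its own mean log2 level. S3-1 was below the mean for 7 members, from -0.06 for Nfib to -1.24 for Etv1, and not for Fezf2 at 0.25 or Mef2c at 0.00. All 8 samples share their depth and dissection with every gene, and these distances are given as a description.

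**Figure D4:**
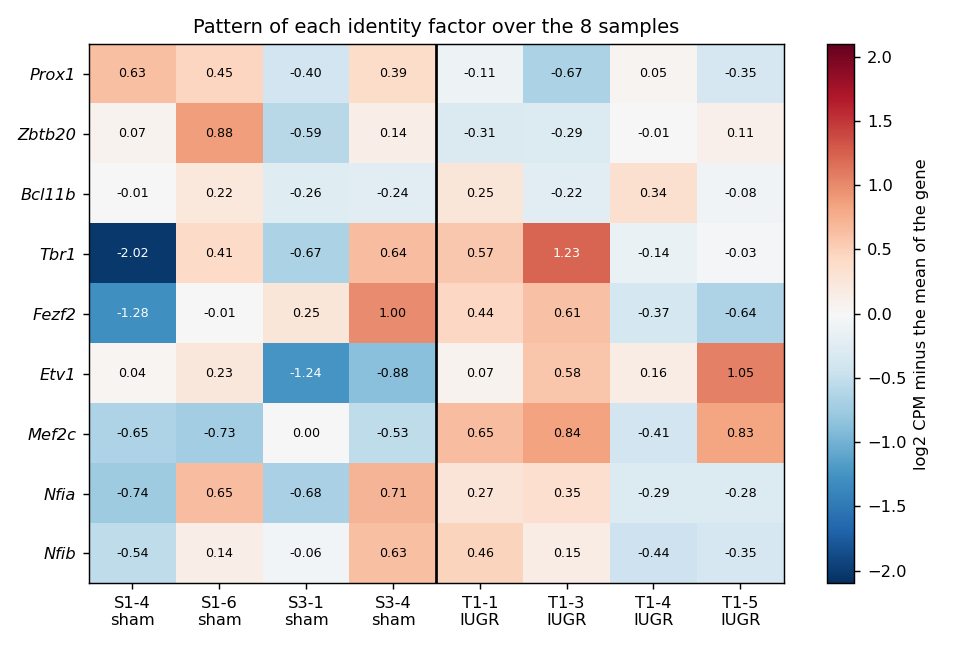
Log2 CPM of each identity factor in each sample, centred on that gene's mean over the 8 samples and drawn as colour. S1-4 is the lowest library for Tbr1 and Fezf2 and the highest for Prox1. Etv1 is above its mean in all 4 IUGR columns and, at 0.04 and 0.23, in both S1 columns, and Mef2c is above its mean in 3 IUGR columns, T1-4 being at -0.41.

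For each member with enough spread over the samples, the genes of most similar pattern were listed by the same measure. Prox1 was nearest to Sh3rf1 at 0.19, Gareml at 0.20 and Lrp2 at 0.21. Zbtb20 was nearest to Shank2 at 0.15, Helz at 0.16 and Srrm2 at 0.17. Fezf2 was nearest to Prdm8 at 0.20, Eomes at 0.23 and Neurog2 at 0.25, the latter pair being genes of intermediate progenitors. Nfia was nearest to Zfpm2 at 0.11, 2900026A02Rik at 0.16 and Zfp36l1 at 0.17, and Nfib to Rab3d at 0.12 and to Gas1 and Ccdc136 at 0.13 each. Mef2c was nearest to Kcnq5 at 0.23 and to C1qtnf4 and Nrg3 at 0.27 each. Etv1 was nearest to Iqsec3 at 0.27 and to Nalcn and Lonrf2 at 0.28 each. Tbr1 had no gene nearer than Lppr1 at 0.37, followed by March4 at 0.42 and Lingo1 at 0.44, and Bcl11b varied too little to be ranked.

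Which direction a member took depended on the samples for 5 of the 9. Prox1, Tbr1, Etv1 and Mef2c kept their sign with any 1 library left out and against either set of sham samples. Zbtb20, Fezf2, Nfia and Nfib turned sign with 1 library left out, and Bcl11b was at -0.015 against S1 and 0.37 against S3. Without S3-1, Prox1 was at -0.74 and Zbtb20 at -0.53, with adjusted p of 0.121 and 0.383 in edgeR's quasi-likelihood test. Without S3-4, Fezf2 was at 0.32, Nfia at 0.15 and Nfib at 0.12. The unadjusted p stayed under 0.05 with any of the 8 libraries left out for Mef2c, in 5 of 8 such fits for Etv1, which lost it without T1-5, S3-1 or S3-4, and in 2 of 8 for Prox1, which kept it without T1-4 or S3-1.

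**Figure D5:**
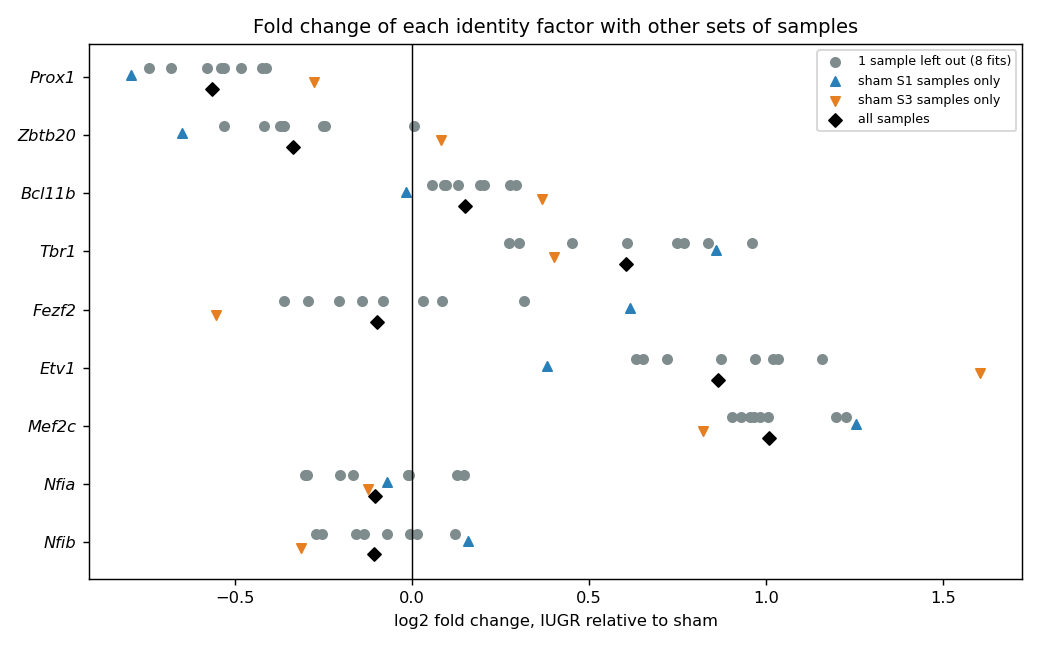
Log2 fold change of IUGR over sham for each identity factor with all samples (black diamonds), with each of the 8 samples left out in turn (grey circles), and with only the S1 (blue triangles) or only the S3 (orange triangles) sham samples. Etv1 ranges from 0.38 against S1 to 1.60 against S3, and Zbtb20, Bcl11b, Fezf2, Nfia and Nfib lie on both sides of 0.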

How the data were processed

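Total RNA of hippocampi was depleted of ribosomal RNA (TruSeq Stranded Total RNA with Ribo-Zero Gold) and sequenced as single reads on a HiSeq instrument. The authors aligned reads to GRCm38 (Novoalign 2.8 is named in the submitters' processing notes) and deposited whole-number counts per gene. The counting program, annotation and strand setting are not given in the sources used here. Of 16397 genes 16124 matched GENCODE M21 by Ensembl gene identifier, 14564 of them protein-coding. Those averaging from 10 to just under 50000 counts were tested (13707) with edgeR 4.0.16 (TMM, quasi-likelihood test, Benjamini-Hochberg over all of them) under R 4.3.3, with no covariate, after the script was tested on simulated data. Levels are CPM, on library sizes scaled by TMM, and log2 values used a prior count of 2. Alternatives were other scalings, DESeq2 1.42.0, limma 3.58.1 (voom), other filters, each library left out, and either set of sham samples alone. The 12 pairs of samples within a group all differed beyond sampling noise. Lists of other cell types are given by counts and sums, with mean log2 CPM added for the neuron and Cajal-Retzius lists. Slco1a4, Lef1, Neurod1, Dcx, Reln, Tubb3, Map2, Gfap and Tle4 were named after their values were seen. Genes named were the 9 factors, every tested relative, the genes called and the 2 largest differences of each related neuron, patterning or glial list (among genes averaging 50 counts or more), and the 3 nearest patterns of each factor with an SD of at least 0.3. A gene that the rule names among the gliogenic genes is not reported here. The factors, lists and rules were chosen with earlier results of these data known.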

Additional observations from a re-analysis of the deposited data

How the results depend on the processing

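Of all genes tested, 200 were called by edgeR's quasi-likelihood test, against 425 by the DESeq2 Wald test, 328 by limma-voom, 73 with a mean count of at least 50, 0 against the S1 sham samples alone (1053 at an unadjusted p under 0.05) and 2 against S3 alone. Leaving out 1 sample at a time, the count ran from 41 (without S1-4) to 298 (without T1-5). The number of identity factors called was 0, but 1 (Mef2c) by DESeq2, and 0 to 1 with each sample left out, where library T1-4 decided it. Directions turned for Fezf2 (0.0084) and Nfia (0.025) under limma-voom, for Bcl11b (-0.015), Fezf2 (0.62) and Nfib (0.16) against S1 alone and for Zbtb20 (0.083) against S3 alone. Leaving out 1 sample, the values ran from -0.36 to 0.32 for Fezf2, -0.30 to 0.15 for Nfia, -0.27 to 0.12 for Nfib and -0.53 to 0.0074 for Zbtb20. The cause was not tested, except that fewer samples or genes enter some of these fits. No scaling alternative changed a member's direction or call. No paired analysis was possible because the labels give no pairing between the groups. Depth limits Etv1 most, at 75 to 386 counts a library.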
